A study of Homo sapiens with 6 samples.

Results

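The 10 secreted factors CXCL1, CXCL2, CXCL3, CXCL5, CXCL8, CCL2, CCL20, IL6, IL1A and LIF were followed in A549 cells after FSCN1 was silenced. They were chosen by gene symbol from a count table of 30230 genes, in which each of the 10 had 1 row. A549 is a human lung adenocarcinoma line used as a model of non-small-cell lung cancer, and FSCN1 encodes fascin, a protein that bundles actin filaments. Polyadenylated RNA was sequenced in 3 NC (negative control) libraries and in 3 siFSCN1 libraries, whose cells had been transfected with siRNA against FSCN1, to ask which transcripts change when FSCN1 is lowered. For siFSCN1 the paper names a single siRNA sequence for RNA sequencing, so effects of that sequence and of lower FSCN1 cannot be told apart. The study's methods give a scrambled siRNA as the control, while the label of the NC samples names a control plasmid. Both groups were otherwise unmodified A549 cells, and by their labels all 6 libraries came from this single line.

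Chemokines are small secreted proteins that bind receptors on leukocytes and direct their migration. CXCL1, CXCL2, CXCL3, CXCL5 and CXCL8 carry a Glu-Leu-Arg motif before their first cysteines and attract neutrophils. They act on the receptor CXCR2, and CXCL8 also acts on CXCR1. CCL2 acts on CCR2 and attracts monocytes, and CCL20 acts on CCR6. IL6 and LIF signal through receptor complexes that contain IL6ST (gp130) and activate STAT3, and IL1A signals through IL1R1 and MYD88 to NF-κB. Epithelial tumour cells are a known source of many of these factors. Their genes are known to be switched on by NF-κB at the promoter, and many of their mRNAs are short-lived because of AU-rich elements in the 3′ untranslated region.

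The libraries held between 27967301 and 36560919 counts each, and the targeted gene behaved as labelled. FSCN1 was at 46.1 ± 1.13 FPKM (mean ± SD, n = 3) in NC and at 3.49 ± 0.860 FPKM in siFSCN1, a log2 fold change of -3.89 ± 0.0937 (SE; adjusted p = 8.1e-16, edgeR). FPKM is the deposited level, the fragments of a gene divided by its length and by the depth of the library. All 4 epithelial markers examined were above 1 FPKM, and their sum was 2593 to 2985 FPKM in NC and 1519 to 1845 FPKM in siFSCN1. That sum was mostly KRT8 and KRT18, which were lower in siFSCN1 (log2 fold changes -0.88 and -0.99), while CDH1 (1.35, adjusted p = 8.03e-15, edgeR) and EPCAM (0.29, adjusted p = 0.0227, edgeR) were higher. Of 6 leukocyte markers with a row, CD14 alone reached 1 FPKM, with the list's sum at 3.54 to 4.08 FPKM in NC and 4.37 to 5.46 FPKM in siFSCN1, while PTPRC and CD3E stayed at or under 0.02 FPKM in every library. CD14 was higher in siFSCN1 (log2 fold change 0.40, adjusted p = 0.00528, edgeR), and CD68 (-1.24, adjusted p = 0.00197, edgeR) and ITGAM (-0.67, adjusted p = 0.00766, edgeR) were lower. The part of these markers in the results was not tested. None of 6 fibroblast or 4 endothelial markers reached 1 FPKM. Fewer cells that make a transcript and less transcript per cell cannot be told apart in such bulk RNA. Nothing in the labels says that the libraries of a group came from separate cultures, although the study calls them biological replicates, so the p-values measure the spread between these libraries.

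The promoters of the CXC genes are shown first because these 5 genes share one sequence upstream of their starts. The letters GGANTTTCC, an NF-κB-type site written from the known sites of these genes, were searched on both strands in the 250 bases upstream of each RefSeq start (GRCh38.p14). They were present in 6 of the 8 chosen genes that had a promoter entry, against 1.45% of all 35116 promoters. Because the letters were written from these genes, that count is a description of the set. The 9 letters are in capitals below, with 10 bases on each side, 5′ to 3′ on the strand of the gene. Positions count back from the RefSeq start, the base before it being -1.
CXCL1, chr4:73869305-73869333, plus strand, site at -78 to -70: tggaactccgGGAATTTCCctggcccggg
CXCL2, chr4:74099254-74099282, minus strand, site at -77 to -69: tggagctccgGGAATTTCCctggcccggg
CXCL3, chr4:74038749-74038777, minus strand, site at -78 to -70: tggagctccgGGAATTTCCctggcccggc
CXCL5, chr4:73998749-73998777, minus strand, site at -90 to -82: atgagttcagGGAATTTCCccagcatccc
CXCL8, chr4:73740468-73740496, plus strand, site at -91 to -83: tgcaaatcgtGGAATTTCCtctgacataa
IL6, chr7:22727118-22727146, plus strand, site at -72 to -64: atcaaatgtgGGATTTTCCcatgagtctc

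The 5 CXC genes held the same 9 bases, and CXCL1, CXCL2 and CXCL3 also shared most of the flanks. GENCODE places the start of CXCL3 and of IL6 farther upstream than RefSeq, so that both sites lie inside the GENCODE gene. The letters TGANTCA, an AP-1-type site searched on both strands, were found in CXCL8 and IL1A, and in 6.57% of all promoters. The letters TATAAA on the gene strand were found in CCL20 (-29 to -24), CXCL8 (-31 to -26) and IL1A (-239 to -234). They were found in 6.8% of all promoters. IL1A had alternative RefSeq starts, and its match lay far upstream of the start it is counted from. CCL2 and LIF had no promoter entry.

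Of the 10 genes, 8 passed the filter on low counts, 7 of them in all 6 libraries and CCL20 in 3. Against a threshold of adjusted p under 0.05 and at least a 2-fold change (edgeR's quasi-likelihood test, Benjamini-Hochberg over 17076 genes), CXCL1 and CXCL8 were called higher in siFSCN1 and CCL2 was called lower, while 11.7% of all tested genes were called higher and 4.85% lower. With the adjusted p alone, CXCL1, CXCL2, CXCL5 and CXCL8 passed as higher and CCL2 and LIF as lower, where 35.1% of all tested genes passed as higher and 33.2% as lower. The same 4 and 2 genes had count-per-million values that did not overlap between the groups, against 36.8% of all genes without overlap and higher and 34.4% without overlap and lower. CXCL3 and CCL20 did not pass. The 8 fitted log2 fold changes had a median of 0.30, beside 0.03 over all tested genes.

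**Figure D1:**
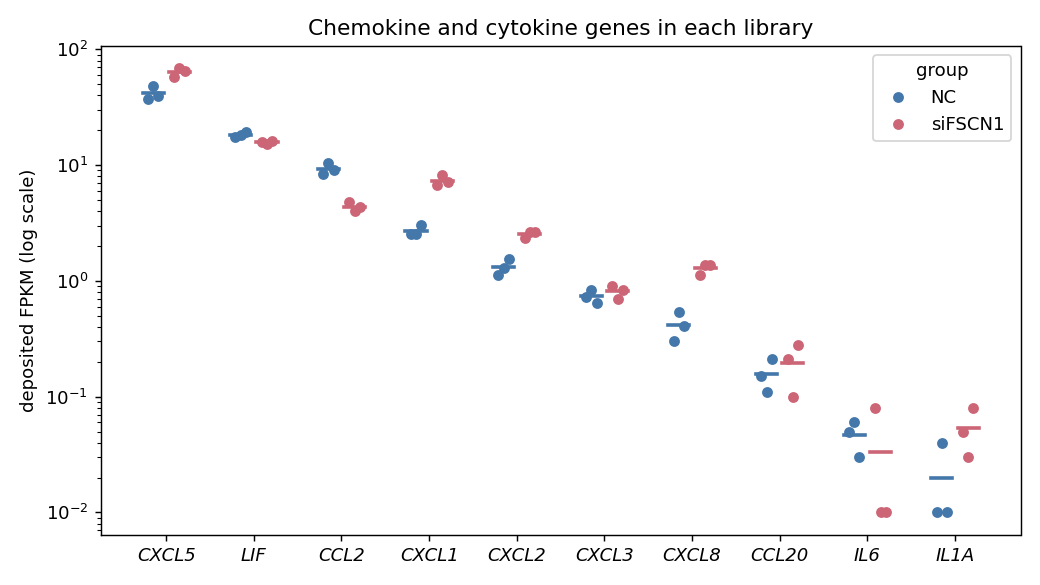
Deposited FPKM (log scale) of the 10 genes in each library, with NC in blue, siFSCN1 in red and a bar at each group mean (n = 3). CXCL1, CXCL2, CXCL5 and CXCL8 sit higher in all 3 siFSCN1 libraries, CCL2 and LIF sit lower, and CXCL3, CCL20, IL6 and IL1A overlap between the groups.

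The largest fitted rises among the tested genes of the set were those of the neutrophil attractants CXCL8 and CXCL1. CXCL8 (IL-8; chr4:73740519-73743716) was at 0.3, 0.54 and 0.41 FPKM in NC replicates 1 to 3 and at 1.12, 1.36 and 1.38 FPKM in siFSCN1. Every siFSCN1 library lay above every NC library. The fitted log2 fold change was 1.47 ± 0.206 (SE; 95% interval 1.03 to 1.90), a 2.76-fold rise (adjusted p = 4.92e-06, edgeR). CXCL8 was a scarce transcript, with 25 to 40 counts per NC library and 95 to 118 per siFSCN1 library, and of the 5139 tested genes with a mean of 0.1 to 1 FPKM, 23.3% were called higher.

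CXCL1 (chr4:73869393-73871308), a growth-regulated chemokine and ligand of CXCR2, was at 2.56, 2.53 and 3.06 FPKM in NC and at 6.76, 8.21 and 7.09 FPKM in siFSCN1. The lowest siFSCN1 library exceeded the highest NC library by more than the range within either group. The log2 fold change was 1.27 ± 0.124 (SE; 95% interval 1.01 to 1.53), a 2.40-fold rise with an adjusted p of 4.56e-08 (edgeR). In its own range of 1 to 10 FPKM, 5.71% of 7975 tested genes were called higher.

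CXCL2 and CXCL5 rose by less than 2-fold. CXCL2 (chr4:74097040-74099196), a close relative of CXCL1, was at 1.13, 1.3 and 1.56 FPKM in NC and at 2.35, 2.62 and 2.62 FPKM in siFSCN1. Its groups did not overlap, and its log2 fold change was 0.76 ± 0.152 (SE; 95% interval 0.44 to 1.08) with an adjusted p of 0.000256 (edgeR). CXCL5 (chr4:73995642-73998677), known as an epithelial neutrophil attractant, was at 37.41, 47.99 and 39.57 FPKM in NC and at 58.23, 68.79 and 65.61 FPKM in siFSCN1. It was the most abundant of the 10 genes in every library, and its log2 fold change was 0.46 ± 0.074 (SE; 95% interval 0.31 to 0.62) with an adjusted p of 2.35e-05 (edgeR). A GENCODE gene on the opposite strand, ENSG00000287037, overlaps CXCL5, and the strand setting of the authors' counting is not given in the sources used here.

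CXCL3 (chr4:74036589-74038807), the third close relative, was at 0.72, 0.84 and 0.65 FPKM in NC and at 0.9, 0.7 and 0.84 FPKM in siFSCN1. The groups overlapped, and the log2 fold change was -0.025 ± 0.187 (SE; adjusted p = 0.912, edgeR). The 95% interval of -0.42 to 0.37 lay below the fitted values of CXCL1, CXCL2, CXCL5 and CXCL8, although it overlapped the interval of CXCL5. Its direction is not settled by these data: it was positive when scaled by library totals (0.16) or by the upper quartile (0.0922), with no pass under either.

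**Figure D2:**
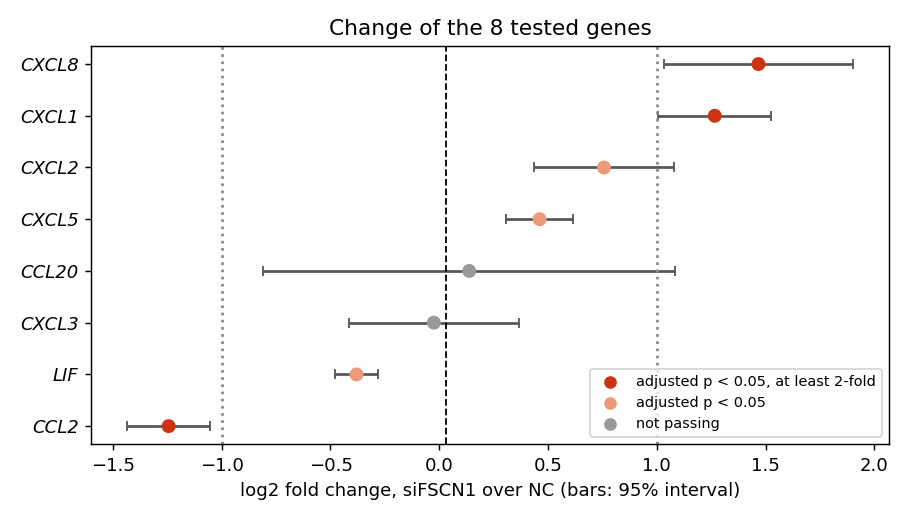
Fitted log2 fold change (siFSCN1 over NC, edgeR) of the 8 genes that passed the count filter, with 95% intervals. Dotted lines mark 2-fold changes and the dashed line the median of all tested genes (0.03). CXCL8 and CXCL1 lie beyond the upper line and CCL2 beyond the lower line.

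The proportions of the 5 CXC genes to one another were compared next. For each library the log2 ratio of scaled counts was taken for all 10 pairs of the 5 CXC genes, with a prior count of 2. These counts were scaled to library size and not divided by gene length, so their ratios differ from those of FPKM. The ratios were compared between groups by an exact 2-sided permutation test, in which 3 against 3 libraries cannot give a p under 0.1. In 8 of the 10 pairs the ratios did not overlap between groups (exact p = 0.1, 0.125 after Benjamini-Hochberg adjustment over the 10 pairs), so no pair passed and none could. The pairs share genes and are not independent. Ratios of other gene pairs were not compared, so the count does not set the CXC genes apart. Among single tested genes, 36.8% were without overlap and higher and 34.4% without overlap and lower. The log2 ratio of CXCL1 to CXCL3 was 1.15 ± 0.318 (SD, n = 3) in NC and 2.44 ± 0.328 in siFSCN1. That of CXCL1 to CXCL8 was 1.96 ± 0.427 in NC and 1.78 ± 0.133 in siFSCN1 and overlapped (exact permutation p = 0.5). CXCL2 to CXCL5 also overlapped (exact permutation p = 0.2).

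Per length, CXCL5 made up most of the family's RNA in both groups. The 5 CXC genes together summed to 46.9 ± 5.71 FPKM (SD, n = 3) in NC and 76.2 ± 6.27 FPKM in siFSCN1. CXCL5 was 88.8% ± 1.38 of that sum in NC and 84.3% ± 0.333 in siFSCN1. The sum therefore followed CXCL5, and the larger fold changes of CXCL1 and CXCL8 came from lower levels.

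These 5 genes sit together on chromosome 4. Of the CXC chemokine genes there with a row in the count table, CXCL8 and CXCL1 are on the plus strand. PF4, PPBP, CXCL5, CXCL3 and CXCL2 are on the minus strand. Genes of the interval without a row were not placed. Distances run from the start of CXCL8 to the lowest coordinate of each gene, which for minus-strand genes is their 3′ end. CXCL1 lies at 128.9 kb, CXCL5 at 255.1 kb, CXCL3 at 296.1 kb and CXCL2 at 356.5 kb. Of the 5 CXC genes described, the 2 called higher were the 2 on the plus strand. CXCL3, which did not pass, lies between CXCL5 and CXCL2, which both did. PF4, a platelet chemokine gene at 240.3 kb, had a log2 fold change of 0.88 ± 0.343 (SE; adjusted p = 0.0304, edgeR) on 134 counts in all 6 libraries, and PPBP at 245.9 kb had 9 counts in all and was not tested.

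**Figure D3:**
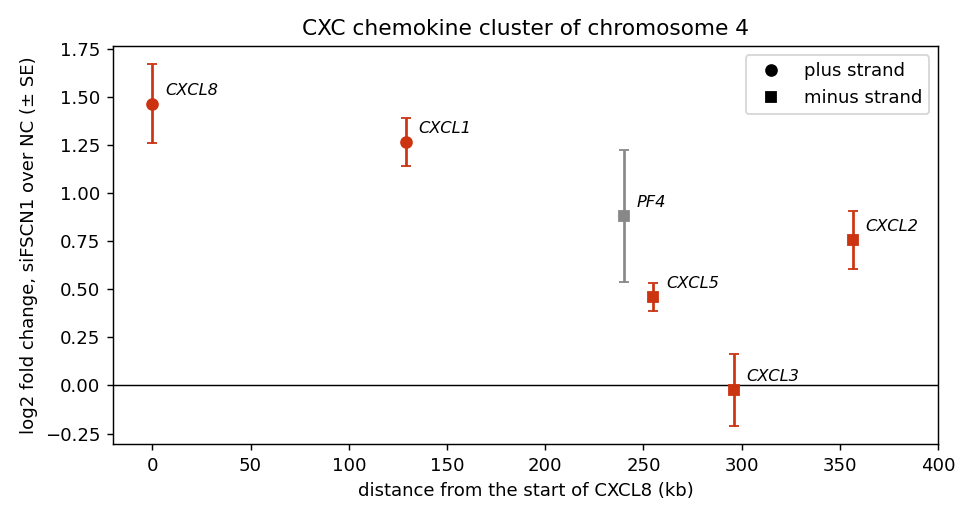
Log2 fold change (siFSCN1 over NC, ± SE, edgeR) of the tested genes of the chromosome 4 chemokine cluster against distance from the start of CXCL8 in kb. Distance runs to the lowest coordinate of each gene. Circles are plus-strand and squares minus-strand genes, red marks the 5 CXC genes described and grey marks PF4. CXCL8 and CXCL1 lie above 1, and CXCL3 lies near 0 between CXCL5 and CXCL2.

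CXCL1, CXCL2 and CXCL3 have closely similar coding sequences, which bears on how well their counts can be told apart. Their coding sequences matched at 93.5% of aligned bases for CXCL1 and CXCL2, 90.7% for CXCL1 and CXCL3 and 94.4% for CXCL2 and CXCL3, while every pair with CXCL5 or CXCL8 matched at 49.2% to 60.5%. Of the 31-base words in their GENCODE v44 transcripts, 15.0% in CXCL1, 21.7% in CXCL2 and 9.57% in CXCL3 were also found in another gene, against 4.61% in CXCL5 and 0 in CXCL8. No word of 100 bases was shared by any of the 10 genes, and the study's methods give reads longer than that from each end of a fragment. The authors kept uniquely mapped reads, so the levels of these 3 genes rest on the reads that could be placed, and the part of read sharing in their values was not tested.

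The monocyte attractant CCL2 (MCP-1; chr17:34255274-34257208) moved the other way. It was at 8.34, 10.34 and 9.13 FPKM in NC and at 4.79, 4.0 and 4.36 FPKM in siFSCN1. All 3 siFSCN1 libraries lay well under the lowest NC library. The log2 fold change was -1.24 ± 0.0901 (SE; 95% interval -1.43 to -1.05), which left 0.422 of the NC level, with an adjusted p of 7.8e-10 (edgeR). In its range of 1 to 10 FPKM, 4.16% of tested genes were called lower.

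CCL20 (chr2:227805739-227817564), the ligand of CCR6, was barely detected. It had 9, 6 and 14 counts in NC and 13, 6 and 17 in siFSCN1, with overlapping groups. The log2 fold change was 0.14 ± 0.450 (SE; adjusted p = 0.798, edgeR), and its 95% interval of -0.81 to 1.08 still held a 2-fold rise, so a change of that size was not detectable at this depth.

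Of the gp130 cytokines, LIF was well expressed and IL6 was not. LIF (leukaemia inhibitory factor; chr22:30240453-30246759) was at 17.61, 18.07 and 19.15 FPKM in NC and at 15.78, 15.22 and 16.28 FPKM in siFSCN1. The groups did not overlap, and the log2 fold change of -0.38 ± 0.0464 (SE; 95% interval -0.48 to -0.28) had an adjusted p of 8.67e-07 (edgeR). Over the 2812 tested genes in its range of 10 to 100 FPKM the median log2 fold change was -0.26. The size of this fall depended on scaling: when scaled by library totals, which moved the median of all genes from 0.03 to 0.22, LIF was at -0.19 and still passed. Both LIF and IL6 overlap genes on the opposite strand, LIF-AS1 and LIF-AS2 for LIF, and IL6-AS1 and STEAP1B for IL6.

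IL6 (chr7:22725884-22732002) had 4, 4 and 3 counts in NC and 6, 1 and 1 in siFSCN1. IL1A (chr2:112773925-112784493), an alarmin cytokine that can act on the cell that makes it, had 1, 3 and 1 counts in NC and 4, 2 and 6 in siFSCN1. Neither passed the count filter. Scaled to library size, the ratio of summed counts in siFSCN1 over NC was 0.642 (95% exact interval 0.224 to 1.75) for IL6 and 2.12 (0.695 to 7.68) for IL1A. Both intervals, which cover counting error only, hold 1, so no difference was detectable at this depth.

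In NC the order of levels per length was CXCL5, LIF, CCL2, CXCL1, CXCL2, CXCL3, CXCL8, CCL20, IL6 and IL1A, and only the neighbours IL6 and IL1A overlapped across libraries. In siFSCN1, CXCL1 stood above CCL2 and CXCL8 above CXCL3, with no overlap in either pair.

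The AU-rich element is shown next because it is a known decay signal of inflammatory mRNAs. The nonamer TTATTTATT, written in DNA letters and searched on the gene strand, was found in the 3′ untranslated region of CXCL1, CXCL2, CXCL3, CXCL8 and LIF, 5 of the 10 genes, against 9.26% of 13358 tested protein-coding genes. Matches may overlap one another. Capitals mark 1 match in each of the 4 CXC genes, 5′ to 3′ on the gene strand, with positions counted from the first base of the untranslated region.
CXCL1, bases 139 to 165: gtcttctatTTATTTATTtattcatta
CXCL2, bases 139 to 165: gtcttctatTTATTTATTtatttattt
CXCL3, bases 462 to 488: tgtcagttgTTATTTATTcaaattatc
CXCL8, bases 201 to 227: tgtaaagtaTTATTTATTtgaatctac

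CXCL2 held 5 such matches, CXCL1 held 3, LIF 2, and CXCL3 and CXCL8 1 each. The shorter element ATTTA occurred 14.0 times per kb in CXCL2, 14.1 in IL6, 10.4 in CXCL3, 7.77 in CXCL1 and 7.19 in CXCL8. It occurred 6.34 times per kb in CCL20, 5.51 in CXCL5 and 4.38 in IL1A. CCL2 held 2.66 and LIF 2.19 per kb, closer to the median of 1.67 over all tested protein-coding genes. A match describes the sequence and is not a measurement of decay.

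The receptors and pathway genes around these factors were read from lists, with p-values adjusted over all tested genes. Of all tested genes, 35.1% passed as higher and 33.2% as lower, and 11.7% were called higher and 4.85% called lower. The counts in each list are to be read beside these shares. Of the 23 list genes called, 7 scarce ones (CXCL12, IL23A, IL34, TNFSF14, CCR1, CCR7 and CCR10) reached the count filter in all 3 libraries of the higher group alone, so the filter favoured a call for them and their share among the calls supports nothing. Of 31 other chemokines, 5 passed the count filter. Of these, 2 passed as higher and 1 as lower, and CXCL12 was the only one called, on 16 counts in NC and 45 in siFSCN1 (log2 fold change 1.28 ± 0.479 SE, adjusted p = 0.0242, edgeR). It was named after its values were seen and its call was lost without NC replicate 1 (adjusted p = 0.0855), NC replicate 3 (0.115), siFSCN1 replicate 1 (0.0693) or siFSCN1 replicate 3 (0.0876), with DESeq2 (0.122) and on log2(FPKM + 0.1) (0.0999). The 5 had a median log2 fold change of 0.68.

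Of 17 other cytokines tested, 8 passed as higher and 6 as lower, with 3 called each way and a median of 0.09, and 9 and 6 with a median of 0.27 when scaled by library totals. EBI3, a subunit of IL-27 and IL-35, fell from 2.18 ± 0.0404 to 0.783 ± 0.231 FPKM (SD, n = 3; log2 fold change -1.64, adjusted p = 9.13e-07, edgeR). IL32, an inducer of other inflammatory cytokines, fell from 2.15 ± 0.209 to 1.09 ± 0.151 FPKM (log2 fold change -1.15, adjusted p = 3.01e-07, edgeR), and was at -0.96, short of 2-fold, when scaled by library totals. The others called were under 1 FPKM and were named after their values were seen: IL34 was lower, and IL11, IL23A and TNFSF14 were higher. TNFSF14 (LIGHT) had 5 counts in NC and 187 in siFSCN1. The call of IL23A was lost without NC replicate 1 (adjusted p = 0.132), NC replicate 2 (0.0513), siFSCN1 replicate 1 (0.0726) or siFSCN1 replicate 2 (0.0712), and with DESeq2 (0.116).

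The receptors that IL6 and LIF use rose. IL6R went from 2.82, 3.22 and 2.78 FPKM in NC to 6.48, 7.18 and 7.28 FPKM in siFSCN1, a log2 fold change of 1.08 ± 0.0664 (SE; adjusted p = 7.51e-11, edgeR). Their shared signal-transducing subunit IL6ST went from 5.91, 6.65 and 6.4 to 12.44, 13.28 and 13.8 FPKM, a log2 fold change of 0.90 ± 0.0513 (SE; adjusted p = 3.08e-11, edgeR). The groups of both genes were far apart. LIFR rose from 0.43 ± 0.0458 to 1.00 ± 0.101 FPKM (log2 fold change 1.05, adjusted p = 2.67e-07, edgeR), just past 2-fold, and lost its call without NC replicate 1 (0.98) or siFSCN1 replicate 2 (0.97). IL11RA, the receptor of IL-11, rose from 0.443 ± 0.0569 to 1.37 ± 0.114 FPKM (log2 fold change 1.45, adjusted p = 2.01e-08, edgeR).

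For IL-1, the receptor IL1R1 rose by less than 2-fold (log2 fold change 0.39, adjusted p = 3.53e-06, edgeR) and its partner IL1RAP did not pass (-0.028, adjusted p = 0.841). Of the 10 tested receptors of the IL-1 and IL-6 families, 5 passed as higher and 2 as lower, with 3 called higher, none called lower and a median of 0.34 (0.52 when scaled by library totals). Of 6 chemokine receptors tested, 4 passed as higher and 1 as lower, and the 3 called higher were CCR1, CCR7 and CCR10, all under 0.5 FPKM in every library and named after their values were seen. CCR2, the receptor of CCL2, had 2 counts in NC and 0 in siFSCN1. CXCR1, CXCR2 and CCR6 were on the same list and were not among the 6 tested.

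**Figure D4:**
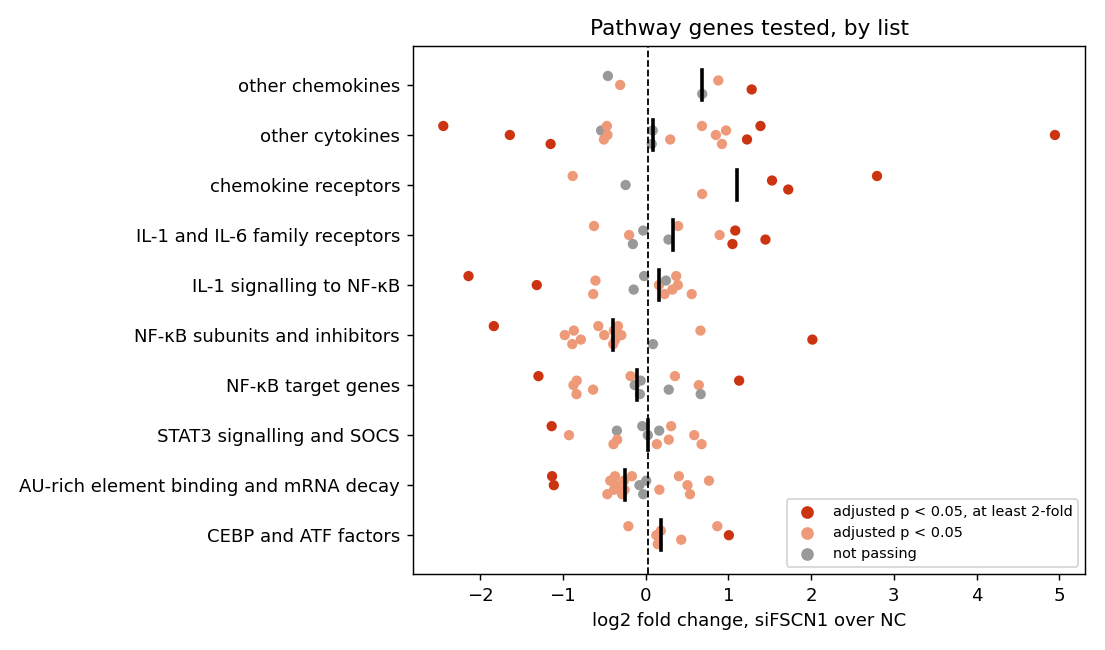
Fitted log2 fold change (siFSCN1 over NC, edgeR) of every tested gene in 10 lists, coloured by whether it passed the adjusted p and the 2-fold threshold. Black bars are list medians and the dashed line is the median of all tested genes (0.03). The list of NF-κB subunits and inhibitors lies mostly left of the line, with a median of -0.39.

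The genes between the IL-1 receptor and NF-κB moved in both directions, and the NF-κB list itself lay mostly lower. MYD88, the adaptor of the IL-1 and Toll-like receptors, fell from 8.51, 9.66 and 9.21 FPKM in NC to 2.45, 2.27 and 2.24 FPKM in siFSCN1, a log2 fold change of -2.14 ± 0.059 (SE; adjusted p = 2.96e-15, edgeR). The kinase IRAK2, which acts with MYD88, fell from 4.34 ± 0.297 to 1.96 ± 0.119 FPKM (log2 fold change -1.31, adjusted p = 1.32e-09, edgeR). Of the 13 tested genes of IL-1 signalling, 6 passed as higher and 4 as lower, with these 2 the only ones called and a median of 0.16. Scaled by library totals, 8 passed as higher and 4 as lower, with a median of 0.35.

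Of 15 NF-κB subunits and inhibitors, 12 passed as lower and 2 as higher, with 1 called each way. When scaled by library totals, 10 passed as lower and 3 as higher. The subunits RELA (log2 fold change -0.87, adjusted p = 2.02e-11, edgeR) and NFKB1 (-0.50, adjusted p = 2.99e-06, edgeR) fell by less than 2-fold, as did the inhibitor NFKBIA (-0.78, adjusted p = 5e-11, edgeR). NFKBIE, another inhibitor, fell from 6.49 ± 0.270 to 2.04 ± 0.0833 FPKM (log2 fold change -1.83, adjusted p = 7.23e-12, edgeR). NFKBIZ, a nuclear cofactor of NF-κB at inflammatory promoters, rose from 0.233 ± 0.0208 to 1.06 ± 0.0557 FPKM (log2 fold change 2.02, adjusted p = 2.08e-10, edgeR). The feedback inhibitor TNFAIP3 was at -0.38 (adjusted p = 0.0148, edgeR) and did not pass when scaled by library totals (-0.19, adjusted p = 0.201).

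NF-κB target genes outside the cytokines had no common direction. Of 14 tested, 3 passed as higher and 6 as lower, and the median of -0.10 became 0.0876 when scaled by library totals, where 5 passed each way. Complement C3 rose from 7.86 ± 0.517 to 19.3 ± 0.387 FPKM (log2 fold change 1.13, adjusted p = 8.5e-13, edgeR), and the apoptosis inhibitor BIRC3 fell from 6.62 ± 0.757 to 3.03 ± 0.258 FPKM (-1.29, adjusted p = 4.39e-11, edgeR).

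Downstream of gp130, STAT3 rose by 0.59 on the log2 scale (adjusted p = 7.12e-10, edgeR). The feedback gene SOCS3 was at -0.34 (adjusted p = 0.000336, edgeR) and did not pass when scaled by library totals (-0.16, adjusted p = 0.0722). Of 13 genes of STAT3 signalling, 5 passed as higher and 4 as lower, with a median of 0.03, which became 7 and 3 with a median of 0.21 when scaled by library totals. SOCS1, under 1 FPKM and named after its values were seen, was the only one called (log2 fold change -1.13, adjusted p = 0.000516, edgeR), and its call was lost without NC replicate 2 (-0.99).

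A list of 19 genes covered AU-rich element binding, mRNA decay and their regulation, with decay-promoting and stabilising members mixed. Of these, 11 passed as lower and 5 as higher, with a median of -0.25, so the counts do not give a direction for decay. Scaled by library totals the list held 7 lower and 8 higher with a median of -0.0657. KHSRP, a decay-promoting AU-rich element binding protein, fell from 26.0 ± 0.802 to 13.3 ± 0.878 FPKM (log2 fold change -1.13, adjusted p = 3.97e-13, edgeR), and MAPKAPK2, a kinase that stabilises such mRNAs, fell from 14.9 ± 0.590 to 7.78 ± 0.526 FPKM (-1.11, adjusted p = 7.74e-12, edgeR). Both were called lower, and neither call was kept when scaled by library totals (-0.94 and -0.92). ZFP36 (tristetraprolin), which directs the decay of AU-rich mRNAs, was at -0.16 (adjusted p = 0.0159, edgeR) and turned to 0.0219 with no pass when scaled by library totals.

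Of 7 CEBP and ATF factors, transcription factors that bind beside NF-κB at several of these promoters, 6 passed as higher and 1 as lower, with a median of 0.19, and none passed as lower when scaled by library totals. CEBPD rose from 24.2 ± 2.41 to 54.7 ± 4.24 FPKM (log2 fold change 1.01, adjusted p = 2.08e-10, edgeR). It lay at the 2-fold threshold and was under it without NC replicate 2 (0.92) or siFSCN1 replicate 1 (0.94). CEBPB, the more abundant of the pair, was at 0.15 (adjusted p = 0.00281, edgeR).

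Across the alternatives to the main test, the direction of CXCL1, CXCL2, CXCL5, CXCL8, CCL2 and LIF and their side of the adjusted p threshold did not change. The 2-fold calls were more fragile in 2 settings: on log2(FPKM + 1), CXCL8 (0.69) and CCL2 (-0.93) fell short of 2-fold, and in a test of whether the change exceeds 2-fold (glmTreat) neither CXCL1 nor CXCL8 passed.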

How the data were processed

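Counts and FPKM per gene were analysed for 3 NC and 3 siFSCN1 libraries, grouped by sample title. The authors trimmed reads, aligned them to GRCh38 and deposited raw counts of uniquely mapped reads for 30230 genes and FPKM for 29899. The methods name HISAT2 and the submitters' processing notes TopHat2, and the kits named in labels and methods differ. The counting tool, its strand setting and the annotation release are not given in the sources used here. No column lacked a sample and no row lacked a gene.

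Counts were filtered by filterByExpr (17076 genes kept), scaled by TMM and tested with edgeR 4.0.16 (R 4.3.3, quasi-likelihood, no covariate, Benjamini-Hochberg over all genes). A call needed at least a 2-fold change besides an adjusted p under 0.05. The deposited FPKM were not rescaled by TMM, so their ratios run above the fitted folds. Replicate numbers were not used to pair the libraries in the main test. Alternatives were RLE, upper quartile and library-total scaling, DESeq2 1.42.0, other filters, the replicate block, limma 3.58.1 on log2(FPKM + 0.1) and log2(FPKM + 1), glmTreat and leaving out each library. The test was also run on counts simulated with the same spread setting for every gene, which does not check it for genes that vary more. GENCODE v44 gave positions and untranslated regions, and RefSeq the promoters. Promoter letters were matched in 250 bases.

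The members and lists were chosen with earlier results of these data known. From each list, called genes with a mean of at least 1 FPKM in one group were named, up to 5, beside fixed receptors and factors.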

Additional observations from a re-analysis of the deposited data

How the results depend on the processing

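Of the 16 alternatives, 15 gave a fold change for each tested gene (glmTreat gives calls only, and CCL20 was below the stricter filter). CXCL1 (1.16 to 1.45), CXCL2 (0.60 to 0.94), CXCL5 (0.39 to 0.65), CXCL8 (0.69 to 1.66), CCL2 (-1.32 to -0.93) and LIF (-0.42 to -0.19) kept direction and side of the adjusted p threshold in all 15. CXCL3 turned positive, never passing, with upper quartile scaling (0.0922), library totals (0.1614), the stricter filter (0.0041) and limma with a pseudocount of 0.1 (0.1265) or 1 (0.0622), and ranged from -0.1263 to 0.0619 without 1 library (0.0619 without NC replicate 2, 0.0559 without siFSCN1 replicate 2). CCL20 ranged from -0.1995 to 0.4364 without 1 library (-0.0437 without NC replicate 2, -0.1995 without siFSCN1 replicate 3). The cause of these changes was not tested.

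The count of all genes called, 2820 of 17076, became 477 with limma on log2(FPKM + 1), where a pseudocount of 1 shrinks low genes by construction, and 1155 with glmTreat. There the members called higher went from 2 to 1 and 0, and the member called lower from 1 to 0 with limma alone. Of calls, 70.6% were higher with TMM, 78.9% with upper quartile scaling and 83.8% with library totals.

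Counts called per list also moved. Other chemokines (1) gave 2 with library totals, 3 with no filter beyond 1 count, 0 with the stricter filter, limma on log2(FPKM + 1) and glmTreat, and 0 to 3 without 1 library. CEBP and ATF factors (1) gave 0 with RLE, DESeq2, no filter and glmTreat, 2 with library totals, and 0 to 1 without 1 library. STAT3 signalling (1) gave 0 with library totals, both limma fits and glmTreat, and 0 to 2 without 1 library. AU-rich element binding and decay (2) gave 1 with upper quartile scaling and glmTreat and 0 with library totals and both limma fits. Chemokine receptors (3) gave 0 with the stricter filter and limma on log2(FPKM + 1) and 1 with glmTreat. Other cytokines (6) gave 0 with limma on log2(FPKM + 1) and 3 with glmTreat, and family receptors (3) gave 1 in both. IL-1 signalling, NF-κB subunits and inhibitors and NF-κB targets (2 each) gave 1 with limma on log2(FPKM + 1). Of the genes named by the rule, MYD88, NFKBIE and C3 were called in all 16 alternatives.

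In the replicate block fit, 2827 genes were called and no call of a member changed. Deviations of same-numbered libraries correlated at -0.035, 0.040 and -0.084. These values alone cannot show whether same-numbered libraries were prepared together, and the labels do not say. Depth limits CCL20, IL6 and IL1A, at most 17 counts per library.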

Other observations

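The tested gene whose log2 count-per-million profile was most like each factor was sought after the group means were removed, over the same 6 libraries. The nearest gene was SYAP1 for CXCL1, MARCHF7 for CXCL2, UGT1A9 for CXCL3, LOXL2 for CXCL5, SLC25A12 for CXCL8, RTN4IP1 for CCL2, PDCD6-AHRR for CCL20 and PRPF38B for LIF. With 6 libraries, between 197 and 474 genes reached a Pearson correlation of 0.9 with each factor, so these names describe these libraries only.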
